A study of Mus musculus with 6 samples.

Results

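Bcl6, Bach2, Foxo1, Irf4, Prdm1, Xbp1 and Sdc1 are 7 genes that run or mark the passage of a B cell through the germinal centre to the antibody-secreting plasma cell. Binding of p53 at these 7 of 22367 protein-coding genes was read from ChIP-seq peak lists of mouse spleen. A peak was counted for a gene where it overlapped the gene body, extended by 10 kb on both sides, and 87 peaks of 5 lists did so. ChIP-seq sequences the DNA recovered with an antibody, here against p53, and a peak is a region where the recovered fragments pile up. All animals were C57/Bl6. The Trp53+/+ animals were 8 weeks old, and their spleens were divided with B220 beads into B cells and the remaining, T cell-enriched non-B cells. The mock lists of both compartments came from control animals, and the IR lists came from animals given 7 Gy of whole-body irradiation and examined 4 h later. The Trp53-/- list, the control for the antibody, came from unsorted spleen of irradiated animals that lack p53, whose age the labels do not give. Chromatin was pooled over animals and each group was 1 library, so no difference between groups could be set against a replicate spread. Peak lists hold no expression values, so the purity of the B and non-B cells was not checked on marker genes here.

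The germinal centre is the site in spleen and lymph nodes where activated B cells divide, mutate their antibody genes and are selected for affinity. Its transcriptional state is held by Bcl6, a repressor that also lowers the response to DNA damage, while Bach2 delays differentiation and Foxo1 maintains the dark zone, where the cells divide. Irf4 and Prdm1, the gene for Blimp-1, end that programme, Xbp1 builds the secretory apparatus, and Sdc1 encodes the syndecan CD138 that marks plasma cells. p53 itself accumulates when DNA is damaged, and it binds DNA at a response element (p53-RE) of paired decamers.

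The p53-REs nearest to the consensus inside the peaks of these genes are shown because they give the letters behind the best matches. A decamer of 10 bases was scored by its mismatches to the p53 consensus, its C at position 4 and its G at position 7 being required, and the consensus reads the same on both strands. Decamers that touch form an unsplit p53-RE, and those 1 to 15 bp apart form a spaced one. Capitals are bases that fit the consensus, and lower case marks mismatches and the spacer. Sequences are the plus strand of mm9.
Sdc1, chr12:8769248-8769267, unsplit, 2 mismatches, in the peaks of both irradiated lists: AGACATGTgCtAACATGTCC
Foxo1, chr3:52082066-52082085, unsplit, 3 mismatches, in the peaks of both irradiated lists: GcACATGCCTGctCATGTCC
Irf4, chr13:30843361-30843380, unsplit, 3 mismatches, in a peak of B cells IR: AGtCTTGCCCAcACTTGaTT
Irf4, chr13:30852988-30853016, spacer of 9 bp, 3 mismatches, in a peak of B cells IR: AccCAAGTTCttaaggttgGGtCATGTTC
Foxo1, chr3:52139984-52140016, spacer of 13 bp, 1 mismatch, in a peak of B cells IR: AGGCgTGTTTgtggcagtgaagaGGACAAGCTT
Bach2, chr4:32488364-32488387, spacer of 4 bp, 1 mismatch, in a peak of B cells IR: GAGCAAGCCatgtgGAGCAAGCTC
Bach2, chr4:32675355-32675376, spacer of 2 bp, 1 mismatch, in the peaks of both irradiated lists: AAGCTTGCCCacAGGCcAGTCT
Bach2, chr4:32452411-32452444, spacer of 14 bp, 1 mismatch, in a peak of non-B cells IR: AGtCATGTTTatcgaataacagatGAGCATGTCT
Prdm1, chr10:44169652-44169674, spacer of 3 bp, 3 mismatches, in the peaks of both irradiated lists: GAGCcTGCCCttgAAGCAAGCgg
Prdm1, chr10:44178427-44178451, spacer of 5 bp, 3 mismatches, in the peaks of both irradiated lists: GGGCTcGCTCcgggcGGACAgGTgC
No p53-RE of at most 3 mismatches, unsplit or spaced, lay inside a peak of Bcl6 or Xbp1, which says only that these letters are not in those peaks. A spaced one of 2 mismatches lay within 300 bp of the midpoint of the Bcl6 peak chr16:23989030-23989211 of non-B cells IR, but not inside that peak.

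After irradiation p53 peaks were found in the extended windows of all 7 genes in both B and non-B cells. B cells IR held 44 peaks at 7 of 7 genes, where 53.3% of all protein-coding genes had a peak within the same distance. Non-B cells IR held 39 peaks at 7 of 7 genes, against 51.8% of genes. B cells mock held 3 peaks, at Bcl6, Bach2 and Irf4, which is 3 of 7 genes against 4.46%. Non-B cells mock held 1 peak, at Irf4, or 1 of 7 genes against 2.27%. The Trp53-/- list held 0 peaks at 0 of 7 genes, against 0.125%, and with 83 peaks in all it was short. With so few genes, each count of genes with a peak in a mock list moves by a large share when 1 gene is added or lost.

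The windows of the 7 genes ran from 25.2 to 367 kb, against a median of 35.4 kb over all protein-coding genes, and longer windows can hold more peaks. Counted per length, B cells IR held 6.03 peaks per 100 kb of these windows and 1.53 over the windows of all protein-coding genes. Non-B cells IR held 5.35 peaks per 100 kb against 1.35. Without Bach2, the gene with the longest window, the densities were 6.63 and 4.69 per 100 kb. The density at these genes was therefore above that over all genes in both compartments, with or without Bach2, as a description of genes that were chosen with earlier results of these data known.

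**Figure D1:**
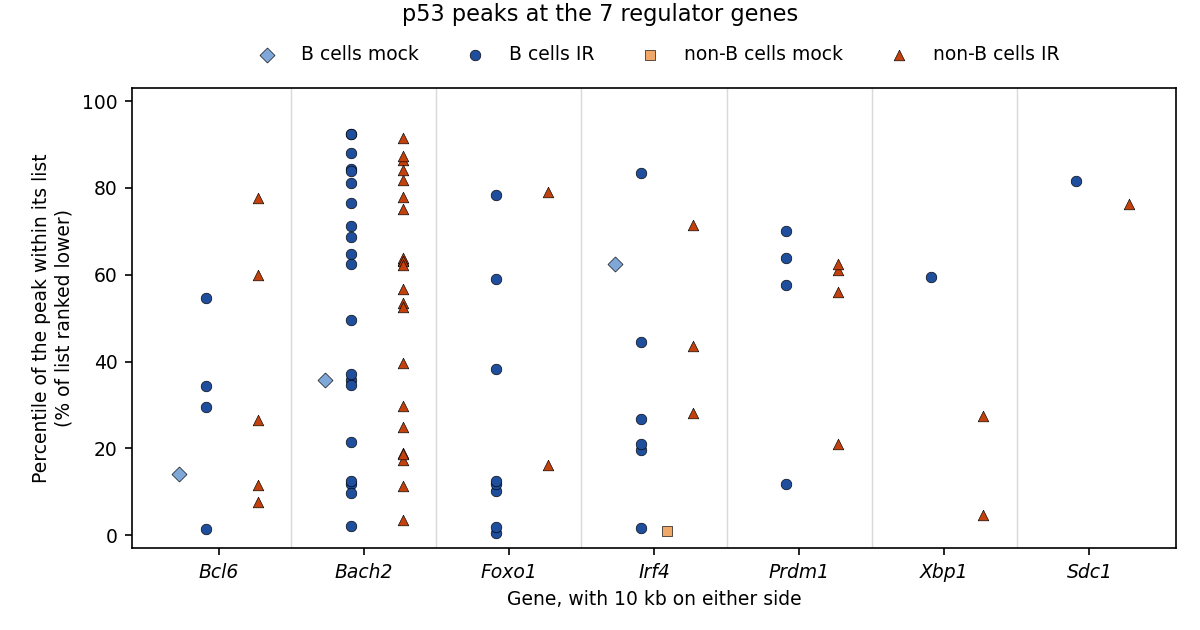
Peaks of p53 at the 7 genes. Each point is a peak in 1 of the 4 wild-type lists, placed by its percentile within its own list, where 100 is the highest deposited value. Points are spread from the bottom to near the top of each irradiated list, and the mock lists hold 3 and 1.

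Each peak carried 1 deposited value, taken here to be −log10 of the p-value that the authors computed, which depends on depth and local background. Values were therefore compared between libraries only as ranks within a list, rank 1 being the highest. B cells had 1413 peaks in mock and 24507 after irradiation, and non-B cells had 712 and 21400. Since read depth is unknown, absence of a peak does not show absence of binding. The narrowest mock peaks measured 55 and 53 bp and the narrowest irradiated peaks 175 and 174 bp, and the part of this difference in the counts of mock against irradiated peaks was not tested. Peaks at the 7 genes did not stand high in their lists. Their median percentile was 41.4 in B cells IR, with quartiles of 12.5 and 70.4. The median among non-B cells was 55.9, with quartiles of 22.9 and 73.3. Of the 44 B cells peaks, 8 were in the top 20% of the list and 13 in the bottom 20%. Of the 39 non-B cells peaks, 5 were in the top and 9 in the bottom 20%.

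Among the regulators that hold the germinal centre state, Bcl6 was bound in its first part. The gene, on the minus strand, spans chr16:23965138-23988938. In B cells mock 1 peak of value 6.64 lay in an intron at chr16:23985561-23985640, 3338 bp downstream of the start, and ranked 1215 of 1413. It is printed because it is 1 of the 3 peaks seen at these genes without irradiation in B cells: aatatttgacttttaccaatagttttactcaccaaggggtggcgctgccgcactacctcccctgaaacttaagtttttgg. No decamer with at most 1 mismatch lay in it. After irradiation the same place was covered at chr16:23985369-23985950 in B cells, with a value of 13.45 and rank 17258. In non-B cells it was covered at chr16:23985485-23985936, with a value of 35.29 and rank 4797. It was the highest Bcl6 peak of non-B cells, and stood 48.0 percentile points higher there than in B cells.

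The highest Bcl6 peak of B cells IR was its neighbour at chr16:23985059-23985316, with a value of 21.52 and rank 11117. Its counterpart in non-B cells IR, chr16:23985024-23985255, had a value of 9.80 and rank 18920, so that here B cells stood higher, by 43.0 points. The order of these adjacent sites was thus opposite in the B and non-B lists, as the peaks were divided in each list. In both lists the sites lay closer than 500 bp, so merging peaks at that distance joins them. Over the start of the gene, B cells IR had a peak at chr16:23988482-23989214 with a value of 14.62 and rank 16083. Non-B cells IR had a pair on either side of the start, chr16:23988446-23988930 with a value of 23.41 and rank 8569, and chr16:23989030-23989211 with a value of 8.86 and rank 19755. The remaining Bcl6 peaks were 1 in each compartment, at chr16:23994488-23994703 in B cells with a value of 6.62, and at chr16:23986431-23986624 in non-B cells with a value of 12.85.

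Bach2, a repressor that keeps Prdm1 off in B cells, held the most peaks of the 7 genes. The gene spans chr4:32325779-32673083 on the plus strand. B cells had 1 peak here in mock and 20 after irradiation. Non-B cells had 0 in mock and 22 after irradiation, and Trp53-/- had 0. Of all 22367 protein-coding genes, 8 had more peaks in irradiated B cells and 5 had more in irradiated non-B cells. Its window was also the longest of the 7, and per 100 kb it held 5.45 and 5.99 peaks, fewer than Bcl6 in either list, which had 9.13 and 11.4. The 43 peaks fell on 25 separate sites, of which 15 were found in both compartments, 5 in B cells alone and 5 in non-B cells alone.

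In B cells mock the Bach2 peak lay at chr4:32336311-32336400, in an intron 10576 bp downstream of the first start of the gene, with a value of 8.02 and rank 907 of 1413. Its sequence is shown as the second of the peaks seen in B cells without irradiation: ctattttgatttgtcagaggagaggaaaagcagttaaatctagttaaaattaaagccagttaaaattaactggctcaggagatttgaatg. No decamer with at most 1 mismatch lay in it. After irradiation the site stood in the top 20% of both lists. B cells covered it at chr4:32336004-32336450 with a value of 46.33 and rank 3854. Non-B cells covered it at chr4:32336123-32336430 with a value of 50.69 and rank 2694. It lies in the start region of a shorter Bach2 transcript, a start region reaching from 5 kb before any annotated start of the gene to 2 kb past it.

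The highest Bach2 peak of B cells IR, and the highest of all 7 genes in that list, lay 9480 bp upstream of the gene at chr4:32315803-32316795. Its value was 73.37 and its rank 1825, and in non-B cells IR the same site, chr4:32316032-32316623, had a value of 48.69 and rank 2888. Close behind it in B cells IR was an intronic peak at chr4:32488260-32488807, 162754 bp into the gene, with a value of 73.3 and rank 1856. In non-B cells IR this site was narrower, chr4:32488497-32488741, with a value of 25.2 and rank 7840, or 29.1 points lower. The spaced p53-RE with 1 mismatch printed for this place lies within the B cells peak and outside the shorter non-B cells peak. The highest Bach2 peak of non-B cells IR, again the highest of the 7 genes in its list, was in an intron at chr4:32345043-32345709 with a value of 63.63 and rank 1838. In B cells IR that site had a value of 54.86 and rank 2909, so it was near the top of both lists.

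Further Bach2 peaks held spaced p53-REs of at most 2 mismatches. The site downstream of the gene end was found in B cells IR at chr4:32675244-32675636 with a value of 40.83 and rank 4644, and in non-B cells IR at chr4:32675247-32675553 with a value of 24.29 and rank 8079. The intronic site at chr4:32651447-32652499 had a value of 45.62 in B cells IR, and 2 non-B cells peaks on it had values of 24.88 and 44.37, the element lying in the lower one. At chr4:32445375-32446384 the B cells IR peak had a value of 35.75 and rank 5746, while the non-B cells pair there had values of 16.04 and 11.01, the element again lying in the lower one and the site being 37.0 points higher in B cells. At chr4:32647280-32647659 non-B cells stood 14.3 points higher, with a value of 25.32 and rank 7722 there and of 19.47 and rank 12342 in irradiated B cells. The peak at chr4:32452247-32452455 was called in non-B cells IR alone, with a value of 11.15 and rank 17419. Spaced elements with few mismatches were therefore found at high and at low ranks.

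Over the first Bach2 start region, B cells IR had a peak at chr4:32326689-32327112 with a value of 26.45 and rank 8608, and non-B cells IR one at chr4:32326795-32327188 with a value of 21.8 and rank 9255. A weaker peak just after the start of the shorter transcript, at chr4:32335332-32335506, had a value of 9.8 and rank 21613 in B cells. Its counterpart of non-B cells, chr4:32335331-32335521, had 9.52 and rank 18977. The other Bach2 peaks had values of 6.98 to 30.68 in B cells IR, and of 7.61 to 40.54 in the non-B list. The sites were not spread evenly along the gene. From chr4:32493231 to chr4:32642657, a stretch of 149 kb, no list had a peak, with 21 sites before it and 4 after it.

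**Figure D2:**
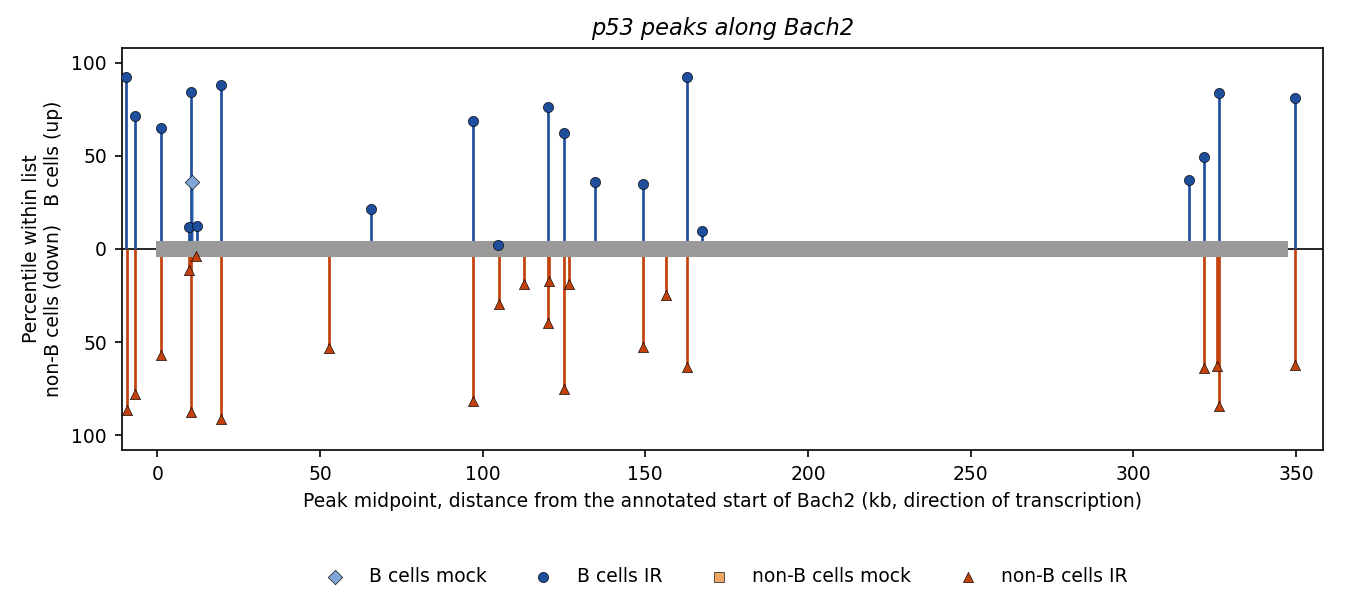
Peaks along the Bach2 window, by distance from the start of the gene in kb and by percentile within each list. The B and non-B irradiated lists share 15 of 25 sites, and a stretch of 149 kb in the gene holds no peak.

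The 10 kb limit of the window fell near other Bach2 peaks. The nearest peak outside it, 18.4 kb upstream of the gene, had a value of 98.09 and rank 1093 in B cells IR and 58.4 and rank 2122 in non-B cells IR. It ranked above all 20 counted peaks in B cells IR, and above all but the highest in non-B cells IR. The outermost peaks counted inside it were those at the site 9480 bp upstream, with the values of 73.37 and 48.69 given above.

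Foxo1, a transcription factor restrained by PI3K signalling, was the gene with the largest surplus of peaks in B cells, 8 after irradiation against 2 in non-B cells. It had 0 peaks in both mock lists and in Trp53-/-. The gene spans chr3:52072259-52154031 on the plus strand. Its highest peak lay at the same intronic site in both compartments. In B cells IR it was at chr3:52081949-52082269, 9850 bp from the start, with a value of 37.6 and rank 5303, and in non-B cells IR at chr3:52081964-52082437, with a value of 37.07 and rank 4463. This is the peak that holds the unsplit p53-RE printed for Foxo1, and the wider non-B cells peak also held a spaced element of 2 mismatches. The other shared site, chr3:52073803-52074282 near the start, had a value of 15.87 and rank 15112 in B cells IR. Its counterpart chr3:52073951-52074157 had 10.91 and rank 17921 among non-B cells peaks.

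The other 6 Foxo1 sites were called in B cells IR alone, and they were mostly low. Over the whole B cells IR list, 6462 of 24507 peaks met no peak of non-B cells IR, and 73.6% met one. A pair in front of the start had values of 6.17 at chr3:52071287-52071464 and 9.23 at chr3:52071765-52072096, with ranks of 24363 and 22023. The peak at chr3:52139926-52140113, which holds the spaced element with 1 mismatch, had a value of 10.08 and rank 21440. The highest of the 6 was chr3:52144600-52144896, with a value of 23.51 and rank 10060, and the last 2 had values of 9.74 and 6.91. The B cells surplus at Foxo1 thus rested on 5 peaks of 10.08 or less and 1 of 23.51, in lists of unequal length and unknown depth.

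Among the genes that start plasma cell differentiation, Irf4, a factor whose dose decides between the germinal centre and plasma cell fates, was the only one of the 7 with a peak in both mock lists. The gene spans chr13:30841095-30858796 on the plus strand. The mock peaks lay just past its end, at chr13:30858861-30858915 in B cells with a value of 10.72 and rank 530 of 1413, and at chr13:30858856-30858947 in non-B cells with a value of 5.41 and rank 705 of 712. The B cells mock sequence, the third of this kind, is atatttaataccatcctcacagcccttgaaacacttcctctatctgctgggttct, and it too held no decamer with at most 1 mismatch. In B cells IR the place was covered at chr13:30858785-30859001, with a value of 11.78 and rank 19387. Non-B cells IR had no peak there, so the lowest-ranked of the mock peaks was not found again in its own compartment.

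The highest Irf4 peak of both compartments lay at the same site, with its midpoint in an exon. In B cells IR it was at chr13:30852981-30853642, 12216 bp from the start, with a value of 44.76 and rank 4051, and in non-B cells IR at chr13:30853005-30853575, with a value of 30.15 and rank 6102. Over the start, both lists had a peak, with a value of 17.38 at chr13:30840908-30841263 in B cells IR with rank 13623, and of 17.27 at chr13:30840828-30841248 in non-B cells IR with rank 12094. Just downstream, chr13:30842326-30842601 had a value of 11.11 and rank 19717 in B cells IR, and its counterpart chr13:30842391-30842627 had 13.13 and rank 15402 in non-B cells IR. These 3 sites were shared, and 3 were found in B cells IR alone. Of the B cells sites, the peak that holds the unsplit p53-RE printed for Irf4, chr13:30842844-30843418, had a value of 12.87 and rank 17977. Another, chr13:30852695-30852869, had a value of 6.63 and rank 24118. An unsplit p53-RE of 3 mismatches lay within 300 bp of the midpoint of that peak, but not inside the peak. The last was the site past the gene end.

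Prdm1, the repressor that shuts down the B cell programme, had 4 peaks in each irradiated list, and they lay on the same 4 sites. It had 0 peaks in the mock and Trp53-/- lists. The gene spans chr10:44156983-44248307 on the minus strand, with a transcript that starts at its far end and others that start inside it. The highest peak of both lists lay just upstream of the start at the far end. It had a value of 29.9 and rank 7336 at chr10:44249288-44249585 in B cells IR, 1129 bp upstream, and 24.52 and rank 8041 at chr10:44249248-44249564 in non-B cells IR. Over the starts inside the gene, B cells IR had 25.99 and rank 8845 at chr10:44178266-44178762, and non-B cells IR had 21.61 and rank 9430 at chr10:44178296-44178784.

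The other Prdm1 sites lay further into the gene. The site at chr10:44167970-44168316 had a value of 22.88 and rank 10398 in B cells IR, and its counterpart chr10:44167993-44168318 had 24.07 and rank 8320 in non-B cells IR. The site at chr10:44169550-44169758, with the spaced element of 3 mismatches, had 9.74 and rank 21625 in B cells IR, and 11.8 and rank 16919 at chr10:44169572-44169751 in non-B cells IR. No Prdm1 site reached the top 20% of either list.

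Xbp1, the transcription factor of the unfolded protein response, had 1 shared site and 1 found in non-B cells alone. The gene is short, chr11:5420662-5425896 on the plus strand, and had 0 peaks in the mock and Trp53-/- lists. A site upstream of the gene had a value of 23.63 and rank 9924 at chr11:5412164-5412527 in B cells IR, 8317 bp before the start, and 8.13 and rank 20402 at chr11:5412277-5412514 in non-B cells IR. It stood 54.8 points higher in B cells, the widest gap among the shared sites of the 7 genes. Over an annotated start of Xbp1, non-B cells IR had a peak at chr11:5420823-5421022 with a value of 13.13 and rank 15508, and B cells IR had none. The midpoint of that peak lay 260 bp past the first start of the gene.

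Sdc1, the plasma cell surface marker, had a single site, upstream of the gene in both compartments. The gene spans chr12:8778129-8800521 on the plus strand. In B cells IR the peak lay at chr12:8769101-8769596, 8781 bp upstream of the start, with a value of 41.78 and rank 4524. In non-B cells IR it lay at chr12:8769140-8769402, with a value of 34 and rank 5093. The site holds the unsplit p53-RE with 2 mismatches printed for Sdc1, the nearest match to the unsplit consensus at the 7 genes, and was absent from the mock and Trp53-/- lists.

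**Figure D3:**
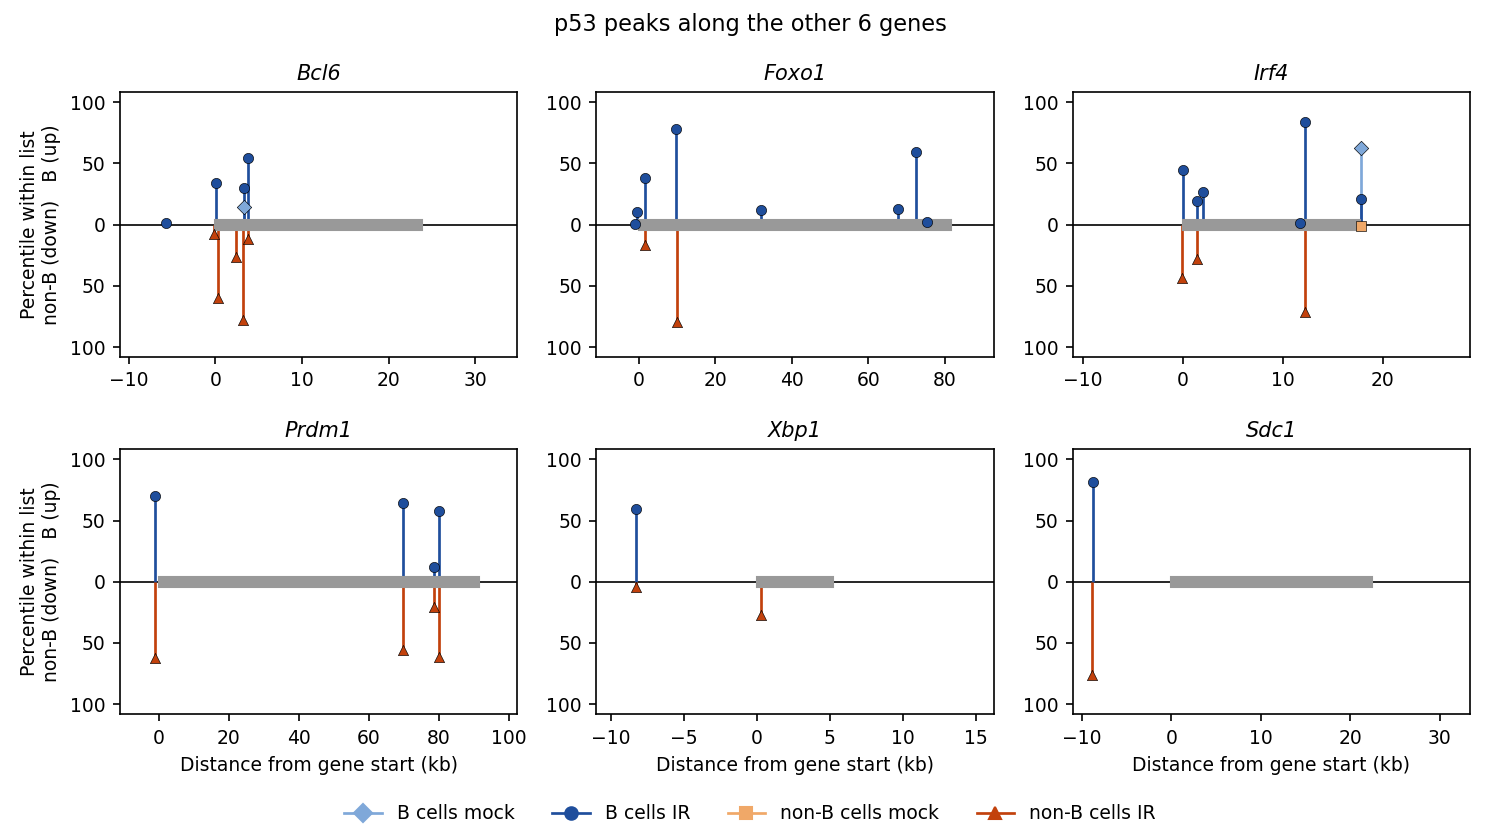
Peaks at Bcl6, Foxo1, Irf4, Prdm1, Xbp1 and Sdc1, by distance from the start of the gene in kb and by percentile within each list. Foxo1 has 6 sites in B cells IR alone, whereas all 4 Prdm1 sites and the Sdc1 site are found in both irradiated lists. Of all B cells IR peaks, 73.6% met a peak of non-B cells IR.

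Set together, the 87 peaks formed 51 separate sites. Of these, 29 were in both irradiated lists, 15 in B cells IR alone and 7 in non-B cells IR alone. In B cells 29 of the 44 irradiated peaks met a peak of irradiated non-B cells, or 65.9% (95% Wilson interval 51.1 to 78.1%), against 73.6% of the whole list. In the other direction it was 32 of 39, or 82.1% (67.3 to 91.0%), against 85.3%. Both intervals, which cover counting error only, held the share of the whole list. The sites called in 1 compartment alone were mostly low, with a median percentile of 11.7 for those of B cells and 26.5 for those of non-B cells.

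At the 29 shared sites, 15 stood at a higher percentile in B cells and 14 did so in the non-B list, with a median difference of 0.486 points. Differences ran from -48.0 to 54.8 points. They were over 25 points at 6 of 29 sites, or 20.7%, where 20.5% of all paired B cells IR peaks differed by as much. The 6 were 3 at Bcl6, among them the adjacent sites described above, 2 at Bach2 and the upstream site of Xbp1. Counted by non-B cells IR peaks it was 8 of 32, or 25%, against 21.2%. Spearman's rho between the percentiles was 0.717 over the 29 sites and 0.759 over all paired B cells IR peaks. By non-B cells IR peaks it was 0.680 and 0.745, and all 4 values are descriptions within the same libraries. By neither measure did the sites of these genes stand apart from the rest of the lists.

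**Figure D4:**
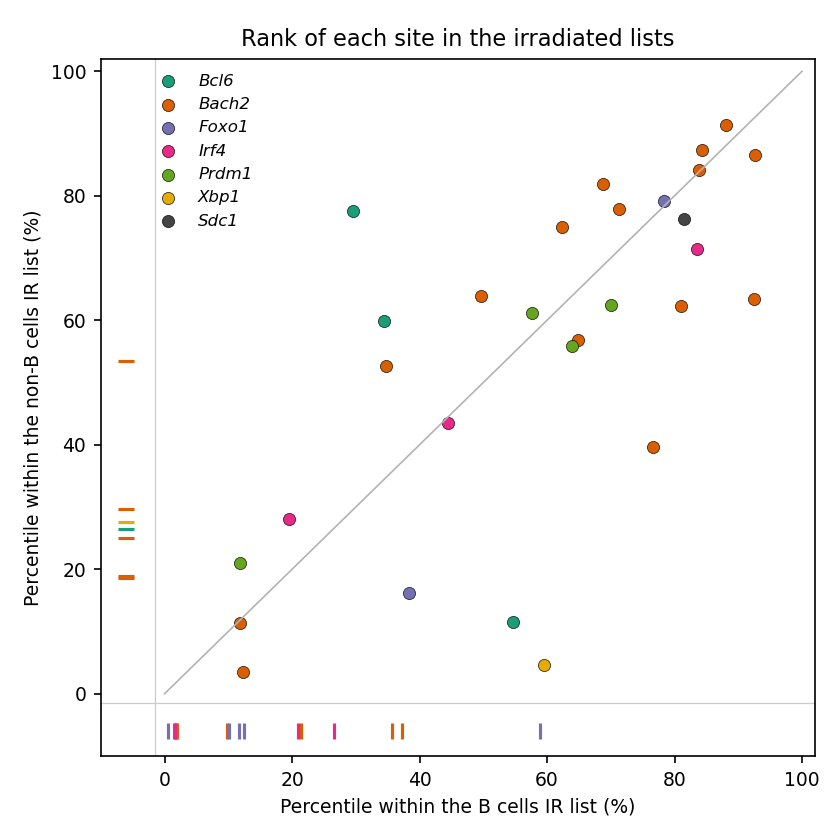
Percentile of each shared site in the B cells list against that in the non-B cells list after irradiation, 1 point per site for 29 sites, with the line of equal percentiles. Of these, 15 lie on the B cells side of the line and 14 on the other, and the site farthest from it is the one upstream of Xbp1.

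Overlap with unirradiated peaks was rare. Among the 44 peaks of irradiated B cells, 3 met a mock peak, or 6.82% (2.35 to 18.2%), against 4.28% of the list. Of the 39 peaks of irradiated non-B cells, 0 overlapped a mock peak of the same compartment, and the interval ran from 0 to 8.97%, against 2.43% of the list. All 3 B cells mock peaks were found again after irradiation.

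An unsplit p53-RE of at most 3 mismatches lay within 300 bp of the midpoint of 4 of 44 B cells IR peaks, or 9.09% (3.59 to 21.2%), and of 15.3% of the whole list. A shift of the windows by 10 kb gave 3.22%. Among non-B cells peaks it was 2 of 39, or 5.13% (1.42 to 16.9%), against 15.4% of the list and 3.31% of moved windows. The intervals held the share of the list and, except in B cells IR, that of the moved windows. At most 2 mismatches were found at 1 peak in each compartment, that of Sdc1, where 10.1 and 10.4% of the lists and 0.739 and 0.701% of the moved windows had such an element. With spacers allowed, 19 of 44 peaks of irradiated B cells and 14 of 39 of irradiated non-B cells had an element, but so did 46.0 and 45.3% of the lists and 35.7% of the moved windows of each. A spaced element of 3 mismatches is thus found at many places without a peak. At most 1 mismatch, with spacers allowed, was found at 3 of 44 B cells IR peaks and 3 of 39 non-B cells IR peaks. The shares were 9.07 and 9.39% of the lists, and 2.49 and 2.53% of the moved windows.

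By position, 29 of the 44 B cells IR peaks had their midpoint in an intron, 4 in an exon, 9 upstream and 2 downstream of the gene. In non-B cells IR the counts were 26, 5, 7 and 1. In each of the irradiated lists 11 peaks lay in a start region, and 33 and 28 elsewhere. Peaks in start regions were richer in GC, with a median of 59.0% against 48.3% elsewhere in B cells, and 59.4% against 47.2% in non-B cells. They also ranked lower, at a median percentile of 38.3 against 49.6 in B cells and 43.5 against 61.7 in non-B cells. None of the 87 peaks covered the annotated start of another gene, and all had a median copy number of 1 in the genome, counted over 31-base stretches.

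The peaks of other genes in the germinal centre and plasma cell pathway were counted in the same way, on a list of 40 genes chosen with earlier results known. After irradiation 35 of 40 had a peak in B cells and 36 had one in the non-B list, against the 53.3 and 51.8% of all genes given above. Without irradiation 13 of 40 had one in B cells against 4.46%, and 5 in non-B cells against 2.27%. The Trp53-/- list had 0 against 0.125%. The windows of these 40 genes were not matched in length to those of all genes, and longer windows can hold more peaks. The highest B cells IR peak of Zbtb20 lay 698558 bp into the gene, and that of Ebf1 320602 bp. In B cells IR the highest peaks counted for Spib, Ern1, Hsp90b1 and Sec61b covered the annotated start of another gene. All 13 transcription factors of the list had a peak in both irradiated lists. So had 9 of 11 germinal centre enzymes, receptors and signals. Of 8 plasma cell regulators and receptors, 6 had a peak in irradiated B cells and 6 had one in the non-B list, Cd93 only in the former and Tnfrsf17 only in the latter. Of 8 secretory genes, 7 had one in B cells and 8 did in the non-B list after irradiation. S1pr2, a receptor that keeps cells in the germinal centre, and Igj, the joining chain of secreted antibodies, had no peak in any list.

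The genes of that list with a peak in both mock lists were Pax5, Cxcr5, Il21r, Zbtb20 and Hsp90b1. Pax5, the factor that defines B cell identity, had highest peaks of 37.36 in mock and 103.23 in irradiated B cells, at percentiles of 95.3 and 95.9. In non-B cells its highest peaks were 16.22 and 47.51, at percentiles of 71.6 and 86.1. Zbtb20, a plasma cell regulator, had 112.11 and 251.85 in B cells, at percentiles of 99.4 and 99.6. Its highest peaks in non-B cells were 53.1 and 481.06, at percentiles of 94.4 and 99.8. Whether the highest peaks of different lists lay at the same site was not compared. Those of the mock lists found in B cells only were Ebf1, Pou2af1, Spib, Mef2c, Ets1, Cxcr4, Cd38 and Atf6, with values of 6.64 to 11.1. The 3 genes with the highest peaks in B cells IR were Mzb1, a chaperone of antibody secretion, Zbtb20 and Il21r, the receptor for a helper cytokine. Mzb1 had a value of 274.92 and rank 59, and Il21r reached 176.04 and rank 364, and both of these peaks lay outside the gene itself. The highest peak of the 7 regulators, at Bach2, ranked below all 3.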

How the data were processed

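p53 ChIP-seq was measured in 5 libraries with a peak list, and the input library has no list and was not used here. Per the labels and the study's methods, reads were aligned with BWA 0.6.2 to mm9, handled with SAMtools, and MACS was run on each library to give its list of peaks. Whether the input served as the caller's control is not given in the sources used here. The deposited values were taken to be −log10 p-values that the authors had from their peak caller. Among wild-type lists, a single Poisson background mean matched 25.2, 33.6, 27.8 and 35.1% of the values below 40 (B cells mock and IR, then non-B cells mock and IR), and the unit of the Trp53-/- list was taken to be the same. On that reading, the study's stated calling limit of 1e-08, a value of 8, had not been applied to the column. Groups came from the sample labels.

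Coordinates are 1-based on mm9 (NCBIM37), and genes are from GENCODE vM1. Overlaps needed 1 bp. Overlapping peaks of any list formed a site. Percentiles are ranks within a list. No p-value was computed, since each group had 1 library and peaks are not replicates. The 7 genes and the gene lists were chosen with earlier results of these data known. Peaks given in full were those in a mock list, the highest per gene in each irradiated list, those in start regions and those with an element of at most 2 mismatches. The p53-REs shown were, per gene, those with the fewest mismatches, with the unsplit one of Foxo1 added after its values were seen, as were the other peaks given. Of the 40 other genes, those with a mock peak and the 3 highest in B cells IR were named by rule, and the rest after their values were seen. Overlap, ranking and element steps were tested on 2000 simulated peaks and 300 sequences and recovered 7 of 7 known quantities. Alternatives were other extensions, overlap rules, minimum values, merging, mismatches, flanks and spacers. The work was done in Python 3.11.15 with pandas 2.3.3, numpy 2.4.6, scipy 1.17.1, matplotlib 3.10.9 and pysam 0.24.0, beside samtools 1.23.1.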

Additional observations from a re-analysis of the deposited data

How the results depend on the processing

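Of 89 values recomputed for 23 results under 13 alternative settings, 77 stayed within their limit and 12 moved. The limit was a factor of 1.5 for counts, and the 95% interval of the main value for shares and medians. With an extension of 50 kb, 5 genes had a peak in B cells mock, with 5 peaks, and 3 in non-B cells mock, with 3 peaks. With no extension, or with a value of at least 8, non-B cells mock had 0 peaks at 0 genes, since the Irf4 peak lies past the gene end and has a low value, and with no extension 2 of the 40 other genes had a peak there. The share of peaks with an unsplit element fell to 2.27% in B cells IR at 2 mismatches, and with spacers it was 43.2% for irradiated B cells and 35.9% for irradiated non-B cells, both by construction of a stricter or looser search. No paired analysis was possible because no group held a second library, and no replicate could be left out. Depth is unknown and limits which sites could be called.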

Other observations

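Over the 4 wild-type lists, the protein-coding genes whose highest percentiles lay nearest to those of Bach2 were Sorl1, Axin1 and Btla, at Euclidean distances of 2.96, 3.04 and 3.26 percentile points. The choice used these percentiles, with 0 where a list had no peak, so the likeness to Bach2 in the mock lists follows from it. Numbers of peaks were not used in the choice. They were 3 to 15 in B cells IR against 20 at Bach2, and 3 to 9 in non-B cells IR against 22.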
